A study of Mus musculus with 4 samples.

Results

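The comparison described here set 2 single agents side by side in the immune cells of 1 mouse mammary tumour model: ORIN1001 at 150 mg/kg and docetaxel at 20 mg/kg, each given for 8 days before the tumours were taken. Members were all cell barcodes of the ORIN1001 library and of the docetaxel library in which 200 or more genes were detected and mitochondrial transcripts made up less than 10% of the UMIs. There were 17103 such barcodes, 8760 with ORIN1001 and 8343 with docetaxel, of 36287 barcodes that passed the same filter in the series' 4 libraries. The tumour was 2153L, from a genetically engineered mouse model, grafted into the fat pad of the mammary gland in Balb/c females, and every group carried this graft. CD45+ cells, that is cells bearing the pan-leukocyte surface protein, were sorted from digested tumours and profiled with a droplet-based 10x Genomics 3' kit. The vehicle library, also taken at 8 days, is given beside the 2 drug libraries as a description of the level in the same tumour without a drug, and the library that received both drugs was not used here. The number and age of the mice behind a library, the dosing schedule and the make-up of the vehicle were not given in the sources used here. Each group was 1 library. No test between the drugs is therefore possible. The 95% intervals were exact Clopper-Pearson for shares, a log-normal approximation for ratios of shares, and exact Poisson for ratios of a gene's level. They cover counting error only, not the spread between animals. Those of gene ratios also treat each UMI as independent and leave out the spread between cells of a library.

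ORIN1001 is an inhibitor of the RNase activity of IRE1, a sensor of unfolded protein in the endoplasmic reticulum. Active IRE1 splices Xbp1 mRNA, which yields XBP1s, a transcription factor for chaperones and for the machinery that degrades misfolded proteins, and it also cleaves a set of other mRNAs at the reticulum. Docetaxel is a taxane that binds tubulin, stabilises microtubules and blocks dividing cells in mitosis. The immune cells of transplanted mammary tumours are often rich in neutrophils and macrophages, and type I interferons, interferon-gamma, hypoxia and sterol supply are among the signals known to set the gene programmes of such cells. A 3' count does not tell the spliced from the unspliced form of Xbp1, so the splicing step itself was not measured.

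The deposited barcodes numbered 8839 with ORIN1001, 8464 with docetaxel and 10362 with vehicle, with 64257802, 78746915 and 86383509 UMIs in the same order. Barcodes kept had median UMIs of 4245 with ORIN1001 and 3916 with docetaxel, and median detected genes of 1537 and 1655. The 2 drug libraries shared 96 barcode sequences, against 109 to 134 for the other pairs of libraries. Ptprc, the gene of CD45, was present in every class measured, for example at 910 CPM (UMIs scaled to a class total of 1000000) in neutrophils with ORIN1001 and 836 with docetaxel. Barcodes with epithelial markers were few, at 14 (0.16%) with ORIN1001 and 20 (0.24%) with docetaxel, against 89 (0.87%) with vehicle. No barcode met the fibroblast gate in either drug library, and a count of 0, read as up to 3 barcodes, allows shares of up to 0.0342% and 0.0360%.

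Classes were gated on the UMIs of a few marker genes per barcode. Neutrophils were gated on Csf3r, Cxcr2, Il1r2, Hdc, Clec4d, Mmp9 and G0s2, macrophages on the complement genes C1qa, C1qb and C1qc, and monocytes on Ccr2, Ly6c2, Vcan, F13a1, Ms4a4c and Chil3. Conventional dendritic cells of type 1 (cDC1) were gated on Xcr1, Clec9a and Gcsam, those of type 2 (cDC2) on Cd209a, Flt3 and Mgl2, mature dendritic cells on Fscn1, Cacnb3, Nudt17, Ccl22 and Il4i1, and plasmacytoid dendritic cells (pDC) on Siglech, Klk1, Cox6a2 and Ccr9. T cells were gated on Cd3d, Cd3e, Cd3g and Trac, and NK cells on Ncr1, Klre1, Klrb1c and Klra7. Some gates gave way to others: monocytes to the macrophage, dendritic, T, NK, neutrophil and B cell gates, and NK cells to T cells. cDC1 gave way to mature dendritic cells, pDC and macrophages, and cDC2 to these and cDC1. A neutrophil also had to hold more UMIs of its own gate than of the monocyte gate. Barcodes that still met several gates were set apart as possible doublets, 270 (3.08%) with ORIN1001 and 255 (3.06%) with docetaxel. Those that met none were 262 (2.99%) and 356 (4.27%). Markers that no gate read were highest in their own class for neutrophils (3 of 3: S100a8, S100a9 and Retnlg), mature dendritic cells (3 of 3) and pDC (4 of 4). They were so too for T cells (5 of 6) and NK cells (4 of 4), where Klra8, at 0 UMIs in both libraries, counted only as a tie. The count was 5 of 7 in macrophages, 1 of 2 in monocytes, 2 of 5 in cDC1 and 1 of 5 in cDC2, the same in both libraries, so the cDC2 class is named by its gate genes only. Macrophages and monocytes lie on a range of C1q levels, and 209 barcodes with ORIN1001 and 224 with docetaxel lay within 2-fold of the macrophage limit.

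Neutrophils made up a larger share of the ORIN1001 library, and every gated class of macrophages, monocytes and dendritic cells a smaller one. Neutrophils were 5947 barcodes with ORIN1001 (67.9%, 95% interval 66.9 to 68.9) and 4256 with docetaxel (51.0%, 49.9 to 52.1), beside 53.8% with vehicle, a log2 ratio of the shares of 0.41 (95% interval 0.38 to 0.45). Macrophages were 869 (9.92%, 9.30 to 10.6) and 1541 (18.5%, 17.6 to 19.3), beside 20.6% with vehicle, a log2 ratio of -0.90 (-1.01 to -0.78). Monocytes were 201 (2.29%) and 308 (3.69%), a log2 ratio of -0.69 (-0.94 to -0.43). The neutrophil share with ORIN1001 lay above both other libraries and the macrophage share below both.

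Shares of one library add up to 100%, so a class that takes a larger share lowers the others. Outside the neutrophil gate, 2813 barcodes remained with ORIN1001 and 4087 with docetaxel. Among these, macrophages were 30.9% with ORIN1001 and 37.7% with docetaxel (log2 ratio -0.29, -0.39 to -0.19), beside 44.6% with vehicle. The monocyte shares of 7.15% and 7.54% did not differ beyond counting error there (log2 ratio -0.08, -0.32 to 0.17). T cells, 11% of all barcodes with ORIN1001 and 13.5% with docetaxel (log2 ratio -0.29, -0.41 to -0.18), took the larger share with ORIN1001 once neutrophils were left out, at 34.2% against 27.5% (0.31, 0.21 to 0.42). The direction of the T cell difference thus depended on whether neutrophils were in the denominator. NK cells were 104 (1.19%) and 113 (1.35%) of all barcodes (log2 ratio -0.19, -0.57 to 0.19), and 3.7% and 2.76% outside neutrophils (0.42, 0.04 to 0.80).

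Mature dendritic cells, cDC2 and pDC had the widest ratios of shares, on few cells. Mature dendritic cells, which carry antigen to lymph nodes and express Ccl22, were 12 barcodes (0.137%) with ORIN1001, 82 (0.983%) with docetaxel and 23 (0.225%) with vehicle, a log2 ratio of -2.84 (-3.72 to -1.97). The class gated as cDC2 held 23 (0.263%), 92 (1.10%) and 57 (0.557%) barcodes in the same order, a log2 ratio of -2.07 (-2.73 to -1.41). pDC, a cell type known for type I interferon output, were 28 (0.320%), 123 (1.47%) and 74 (0.723%), a log2 ratio of -2.21 (-2.80 to -1.62). In these 3 classes the docetaxel share was above the vehicle share and the ORIN1001 share below it, though the ORIN1001 and vehicle intervals of mature dendritic cells overlapped. Their ratios outside neutrophils were -2.23 (-3.10 to -1.36), -1.46 (-2.12 to -0.81) and -1.60 (-2.18 to -1.01), so docetaxel stayed above ORIN1001. ORIN1001 over vehicle outside neutrophils was -0.19 (-1.19 to 0.82) for mature dendritic cells, -0.56 (-1.25 to 0.14) for cDC2 and -0.65 (-1.27 to -0.03) for pDC, so the place of ORIN1001 below vehicle was within counting error there for the first 2 classes. cDC1, known for cross-presentation to CD8 T cells, were 27 (0.308%) and 49 (0.587%), a log2 ratio of -0.93 (-1.61 to -0.25) that was -0.32 (-1.0 to 0.35) outside neutrophils. B or plasma cells were rare, at 39 (0.445%) and 20 (0.240%).

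Among T cells, the shares of 4 subsets did not differ between the 2 drug libraries beyond counting error. Both libraries stood away from vehicle in CD8, regulatory and gamma-delta T cells. CD8 T cells were 464 of 963 T cells (48.2%) with ORIN1001 and 566 of 1125 (50.3%) with docetaxel, beside 37.2% with vehicle, and the log2 ratio between the drugs was -0.06 (-0.19 to 0.06). Regulatory T cells, the Foxp3+ cells that restrain immune responses, were 160 (16.6%) and 207 (18.4%), beside 8.56% with vehicle, a log2 ratio of -0.15 (-0.42 to 0.12). Conventional CD4 T cells were 128 (13.3%) and 119 (10.6%), a log2 ratio of 0.33 (-0.01 to 0.67), and gamma-delta T cells 76 (7.89%) and 97 (8.62%), a log2 ratio of -0.13 (-0.54 to 0.29) beside 22.4% with vehicle. None of these 4 intervals excluded 0, and the intervals leave room for differences of up to 0.67 on the log2 scale.

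**Figure D1:**
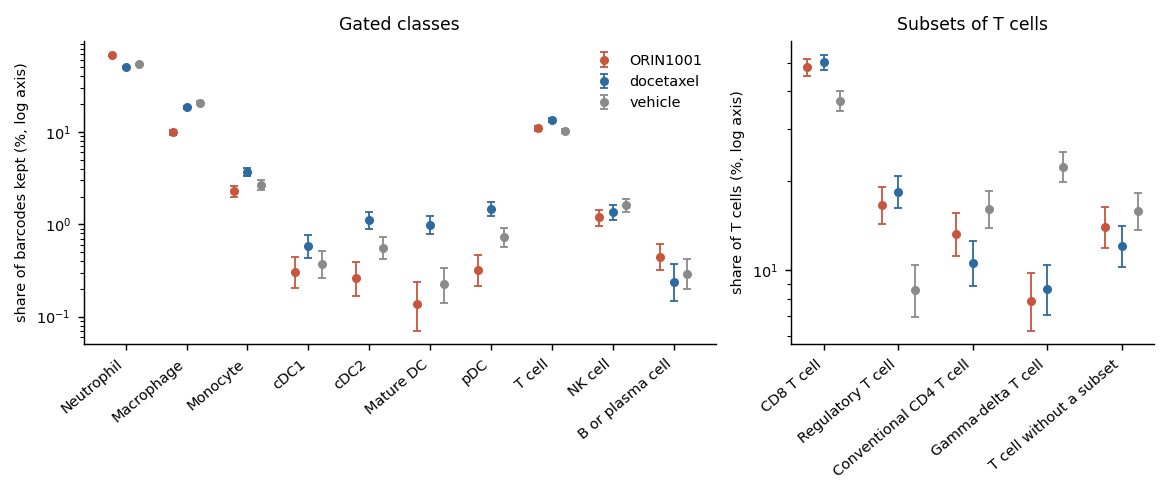
Share of barcodes kept (left, % on a log axis) of each gated class, and share of T cells (right, % on a log axis) of each subset, in the ORIN1001, docetaxel and vehicle libraries; points are the 1 library per group and bars are exact 95% intervals for counting error. Neutrophils lie highest with ORIN1001 (67.9%), mature dendritic cells, cDC2 and pDC lie highest with docetaxel and lowest with ORIN1001, and the CD8 and regulatory T cell shares of the drug libraries lie together above vehicle.

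For each class with at least 100 cells in both libraries, UMIs were summed over cells and expressed as CPM, and each gene with at least 30 UMIs in either library was given a ratio of ORIN1001 over docetaxel on the log2 scale, so that positive values are higher with ORIN1001. A gene was counted as past 2-fold where the ratio was beyond 1 or -1. In neutrophils, 1.53% of 10268 genes were past 2-fold higher with ORIN1001 and 4.19% higher with docetaxel, and in macrophages 1.34% and 1.21% of 11584 genes. The shares were 1.37% and 2.49% of 8626 genes in monocytes, 1.87% and 2.06% of 5765 in NK cells, 1.18% and 2.15% of 9077 in CD8 T cells, 1.55% and 2.13% of 6381 in regulatory T cells, and 2.01% and 2.21% of 4623 in conventional CD4 T cells. The median ratio over all genes was between -0.01 and 0.03 in every class but neutrophils, where it was -0.21. Against scaling by trimmed mean of M-values (TMM), all neutrophil ratios carried a shift of -0.24, and with TMM the split of genes higher with ORIN1001 and with docetaxel went from 2892 and 7376 to 5433 and 4835. The neutrophil genes past 2-fold went with it from 157 and 430 to 284 and 206, so the larger side turned, and values after TMM scaling are given beside the neutrophil lists. No other class had a shift beyond 0.06. Genes are named by a rule on the size of the ratio, and a ratio called the largest is so among genes with at least 50 CPM on the higher side and at least 5% of the CPM of the class where the gene is highest; Isg15, Rsad2, Hspa5, Ern1, Mcl1, Ccl3, Siglecf, S100a8 and S100a9 in neutrophils, Hspa5 and Xbp1 in macrophages, and Irf1, Gzma, Gzmb, Prf1, Ifng, Lag3, Pdcd1 and Tcf7 in T or NK cells were added for their known roles where the rule did not take them, after their values were seen. Neutrophils had more UMIs per cell with ORIN1001 (median 3574 against 2561) and macrophages fewer (19619 against 24939).

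The same 5 gene programmes were read in every class. Type I interferon-stimulated genes were higher with docetaxel in nearly every case, for 25 of 25 measured genes in neutrophils, macrophages, monocytes and CD8 T cells alike, 22 of 22 in regulatory T cells, 21 of 21 in conventional CD4 T cells and 18 of 20 in NK cells. The median log2 ratio of that list was -0.57 in neutrophils, -0.87 in macrophages, -1.18 in monocytes, -1.20 in NK cells, -1.45 in CD8 T cells, -1.07 in regulatory T cells and -1.39 in conventional CD4 T cells. Cholesterol synthesis genes were on the other side, higher with ORIN1001 for every measured gene in macrophages (17), monocytes (16), NK cells (11), CD8 T cells (17), regulatory T cells (14) and conventional CD4 T cells (9), with medians between 0.72 and 1.29, while in neutrophils 10 of 16 were (14 after TMM scaling). XBP1s targets and chaperones had medians below 0 in all 7 classes, from -0.54 in neutrophils and -0.48 in macrophages to -0.06 in conventional CD4 T cells. The neutrophil medians in this paragraph are before TMM scaling, against which all neutrophil ratios carried a shift of -0.24. Neutrophils had the lowest median of XBP1s targets only before that scaling, and their values after it are given below. Hypoxia and glycolysis genes had medians above 0 in all 7 classes, from 0.08 in NK cells to 0.65 in neutrophils, except that the monocyte median of 0.20 turned to -0.04 and -0.09 under 2 other gates. The members of a list are often driven together, and these lists were drawn up with earlier results of these data known, so the counts describe the libraries and carry no test.

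**Figure D2:**
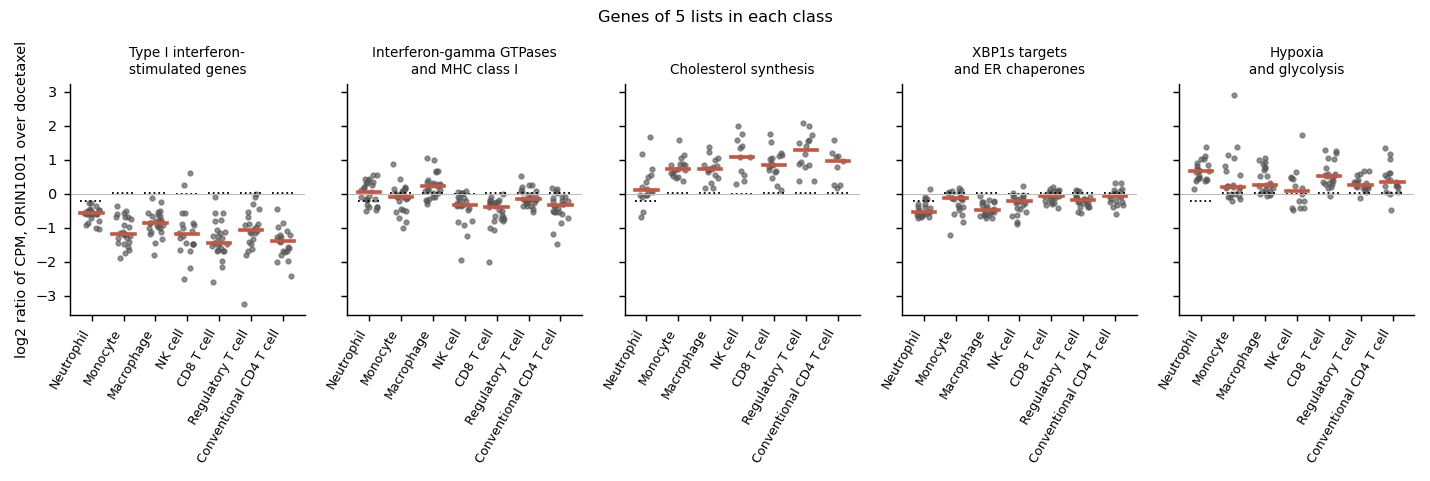
Log2 ratio of CPM, ORIN1001 over docetaxel (y axis), of each measured gene (grey points) of 5 gene lists in 7 classes, with the list's median (red bar) and the median over all genes of the class (dotted line). The type I interferon points lie at or below the dotted line in every class except 2 genes in NK cells, and the cholesterol points lie above it outside neutrophils.

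In neutrophils, most granule genes and the 4 named stefin genes were higher with ORIN1001. With ORIN1001 the largest ratios were those of Ngp, Stfa3, Camp, Stfa2, Cstdc5, Ly6g, Prok2, Mmp8, Cstdc6 and Retnlg. Of 12 measured granule genes, 9 were higher with ORIN1001, 6 of them past 2-fold against 1.53% of all genes, and the median ratio was 0.87 (1.10 after TMM scaling, and 0.40 when each cell weighed alike). Cstdc5, a stefin-like cysteine protease inhibitor, was at 1612 CPM with ORIN1001, 225 with docetaxel and 919 with vehicle (log2 ratio 2.84, 95% interval 2.79 to 2.90). Stfa2, of the same family, was at 678 CPM with ORIN1001, 81.1 with docetaxel and 346 with vehicle (log2 ratio 3.06, 95% interval 2.97 to 3.16). Retnlg, a resistin-like gene of blood neutrophils, was at 879.6 CPM with ORIN1001, 212 with docetaxel and 596 with vehicle (log2 ratio 2.05, 95% interval 1.99 to 2.11). For these 3 genes the order of the libraries was the same, ORIN1001 above vehicle above docetaxel.

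The spread of Cstdc5 over cells went with its level. When each neutrophil was thinned to 1000 UMIs, which left out 129 cells with ORIN1001 and 170 with docetaxel, 32.3% of neutrophils had a Cstdc5 UMI with ORIN1001, 6.73% with docetaxel and 22.3% with vehicle. Unthinned, the shares were 44.5% with ORIN1001 and 11.7% with docetaxel, and in T cells, which should lack the gene, the thinned shares were 0.62% and 0.09%. The stefin genes Stfa2, Stfa3, Cstdc5 and Cstdc6 are near-identical copies, so the split of UMIs between them is uncertain, while all 4 pointed the same way.

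Some granule genes were held by few cells. Ngp, which encodes a granule protein of immature neutrophils, was at 183 CPM with ORIN1001, 0.932 with docetaxel and 85.2 with vehicle (log2 ratio 7.62, 95% interval 6.81 to 8.57), and 1 cell held 15.8% of its ORIN1001 UMIs. A Ngp UMI was in 0.928% of thinned neutrophils with ORIN1001 and 0.0734% with docetaxel (2.25% and 0.235% unthinned), against 0.104% and 0% of thinned T cells. Camp, the cathelicidin gene, was at 77.2 CPM with ORIN1001, 2.64 with docetaxel and 44.4 with vehicle, with 1 cell holding 29.4% of the ORIN1001 UMIs, while the shares of thinned neutrophils with a Camp UMI were close, 0.344% and 0.318% (0.874% and 0.799% unthinned, and 0% of thinned T cells). Its log2 ratio of 4.87 ranged from 3.16 to 5.11 over the alternative settings. Ltf, the lactoferrin gene, had a ratio of 1.03 that ranged from 0.09 to 1.27. Few neutrophils of either drug library, as gated here, thus carried the UMIs of Ngp and Camp. The gate asked for more UMIs of its own genes than of the monocyte gate. In the monocyte class, Ngp had 368 UMIs with ORIN1001, 94.0% of them in 1 cell, and 0 with docetaxel. Camp had 173 UMIs there with ORIN1001, 99.4% of them in 1 cell, and 1 with docetaxel. The part of the gate in this rarity was not tested.

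Other genes of the granule, the surface and the cytosol pointed the same way. Ly6g, the surface antigen used to sort neutrophils, was at 71.2 CPM with ORIN1001, 10.3 with docetaxel and 27.2 with vehicle (log2 ratio 2.78, 95% interval 2.53 to 3.05). Mmp8, the neutrophil collagenase, was at 119 CPM with ORIN1001, 18.2 with docetaxel and 67.7 with vehicle, a ratio of 2.71. Prok2, which encodes the secreted ligand prokineticin 2, was at 217 CPM with ORIN1001, 31.9 with docetaxel and 193 with vehicle, a ratio of 2.77, so that docetaxel stood apart and ORIN1001 was close to vehicle. Lcn2, the siderophore-binding lipocalin, had the same shape, at 1606 CPM with ORIN1001, 615 with docetaxel and 1646 with vehicle. S100a8 and S100a9 encode the subunits of calprotectin, an antimicrobial protein of the neutrophil cytosol. S100a8 was at 25878 CPM with ORIN1001, 8976 with docetaxel and 20729.6 with vehicle (log2 ratio 1.53, 95% interval 1.52 to 1.54). S100a9 was at 49679 CPM with ORIN1001, 22385 with docetaxel and 44619 with vehicle.

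In the other direction, the largest ratios were those of Prss2, Bcl2a1d, Klhl6, Bcl2a1a, Rcan1, Acp5, Bcl2a1b, Mt1, Cd80 and Ffar2. The Bcl2a1 genes encode A1, a survival protein of the BCL2 family that granulocytes use. Bcl2a1a was at 159.6 CPM with ORIN1001, 571 with docetaxel and 184 with vehicle (log2 ratio -1.84, 95% interval -1.90 to -1.78). Bcl2a1b was at 273 CPM with ORIN1001, 837 with docetaxel and 374 with vehicle, a ratio of -1.62, and Bcl2a1d had a ratio of -2.27. The 3 copies are near-identical and their UMIs cannot be divided with certainty. They were the only members of the BCL2 family list past 2-fold, against 4.19% of all genes on the docetaxel side, while 8 of 11 members were higher with docetaxel beside 7376 of 10268 of all neutrophil genes, a like share. The median of the list, -0.16, turned to 0.08 after TMM scaling, with 5 members higher with docetaxel. Mcl1, the other main survival gene of neutrophils, was at 4419 CPM with ORIN1001 and 4264 with docetaxel, a ratio of 0.05 before the TMM shift. Rcan1, a calcineurin regulator, was at 53.5 CPM with ORIN1001, 189.7 with docetaxel and 85.1 with vehicle. Acp5, the tartrate-resistant acid phosphatase, was at 65.2 CPM with ORIN1001, 210.4 with docetaxel and 95.8 with vehicle. Mt1, a metallothionein, was at 97.6 CPM with ORIN1001, 277 with docetaxel and 103 with vehicle, and Cd80, a co-stimulatory ligand, at 25.7 CPM with ORIN1001, 72.4 with docetaxel and 36.7 with vehicle. Docetaxel stood above both other libraries for each of the 10.

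**Figure D3:**
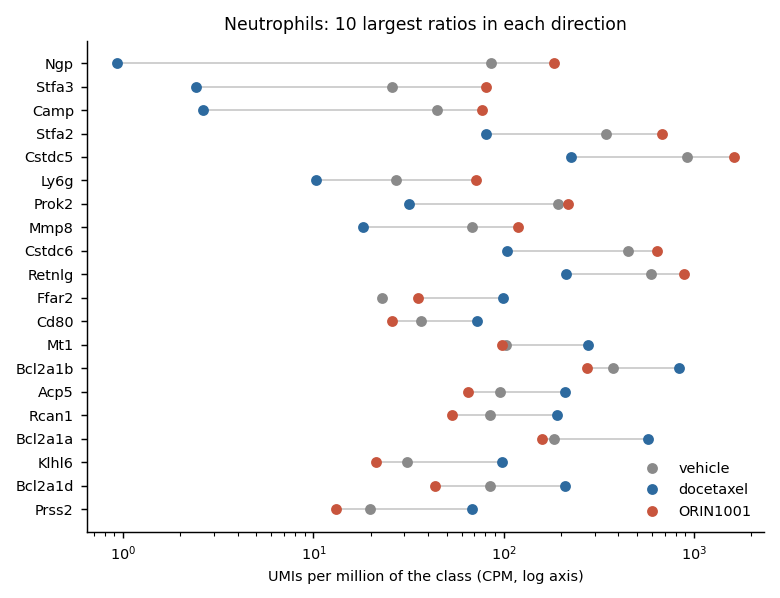
CPM in neutrophils (x axis, log scale) in the ORIN1001, docetaxel and vehicle libraries of the 10 genes with the largest ratio in each direction. The 10 upper genes have vehicle between the drugs, and among the 10 lower genes docetaxel lies highest, with Bcl2a1b at 837 CPM against 273 with ORIN1001.

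Neutrophil chemokines were lower with ORIN1001. Of 12 measured ligands of CXCR2 and of CC receptors, 11 were higher with docetaxel, beside 7376 of 10268 of all neutrophil genes. Of these, 5 were past 2-fold, against 4.19% of all genes. The list's median was -0.94 (-0.71 after TMM scaling, where 9 were higher with docetaxel). Cxcl2, a CXCR2 ligand that draws further neutrophils, was at 7613 CPM with ORIN1001, 14649.6 with docetaxel and 11862 with vehicle (log2 ratio -0.94, 95% interval -0.95 to -0.94). Ccl4, a CC chemokine, was at 1190.3 CPM with ORIN1001, 2721 with docetaxel and 1990.2 with vehicle (log2 ratio -1.19, 95% interval -1.21 to -1.17). Ccl3, its partner, was at 1684 CPM with ORIN1001, 2979.9 with docetaxel and 2792 with vehicle, and Cxcl3 had a ratio of -1.12. In neutrophils thinned to 1000 UMIs, the median cell held 7 UMIs of the list with ORIN1001, 18 with docetaxel and 13 with vehicle, so the median cell differed in the same direction.

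Genes known from SiglecF-high neutrophils, a long-lived tumour-associated state, were divided. Of 13 measured, 9 were higher with docetaxel and 4 with ORIN1001, a split near that of all neutrophil genes. On the docetaxel side 5 were past 2-fold against 4.19% of all genes, and the list's median was -0.57 (-0.34 after TMM scaling, with the split unchanged at 9 and 4). Siglecf itself was at 136 CPM with ORIN1001, 199 with docetaxel and 161 with vehicle (log2 ratio -0.55, 95% interval -0.62 to -0.47). Clec4n, the Dectin-2 gene, was at 497 CPM with ORIN1001, 1182 with docetaxel and 619.8 with vehicle, a ratio of -1.25, and Spp1, the osteopontin gene, at 77.3 CPM with ORIN1001, 213 with docetaxel and 191 with vehicle, a ratio of -1.46. Among inflammatory genes, Il1rn, the interleukin-1 receptor antagonist, was at 1006 CPM with ORIN1001, 2298 with docetaxel and 1118 with vehicle, and Il1a at 290.2 CPM with ORIN1001, 614 with docetaxel and 362 with vehicle, ratios of -1.19 and -1.08. Nos2, the inducible nitric oxide synthase, went the other way, at 185 CPM with ORIN1001, 46.4 with docetaxel and 148 with vehicle (log2 ratio 2.0, 95% interval 1.87 to 2.12). Cish, a cytokine-induced suppressor of signalling, was at 8.44 CPM with ORIN1001, 48.8 with docetaxel and 6.52 with vehicle, high with docetaxel only.

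In neutrophils the type I interferon list favoured docetaxel by a modest margin. All 25 genes were higher there, beside 7376 of 10268 of all neutrophil genes, and 2 were past 2-fold against 4.19% of all genes. The list's median was -0.57, or -0.34 after TMM scaling. Isg15, a ubiquitin-like protein, was at 3835 CPM with ORIN1001, 5317 with docetaxel and 2796 with vehicle (log2 ratio -0.47, 95% interval -0.49 to -0.46). Rsad2, the antiviral enzyme viperin, was at 1423 CPM with ORIN1001, 2046 with docetaxel and 1013 with vehicle (log2 ratio -0.52, 95% interval -0.55 to -0.50). Ifit1, which binds foreign RNA, was at 703 CPM with ORIN1001, 1234 with docetaxel and 504 with vehicle (log2 ratio -0.81, 95% interval -0.84 to -0.78). Both drug libraries lay above vehicle for these 3 genes. The thinned neutrophil held a median of 8 UMIs of the list with ORIN1001, 11 with docetaxel and 4 with vehicle, and 44.1%, 53.3% and 29.1% of cells held at least 10.

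Promoters of Isg15 and Rsad2 are shown because their letters hold the known response element of type I interferon, TTTC, any 2 bases and TTTC on either strand, in capitals. Promoter windows were 300 bases in RefSeq for GRCm38.p6, 250 before and 50 after the start, and the 250 before it are printed 5' to 3' on the gene's strand. The windows are Isg15 (chr4:156200819-156201068, minus strand, 3 overlapping matches) and Rsad2 (chr12:26456453-26456702, minus strand, 1 match).
Isg15: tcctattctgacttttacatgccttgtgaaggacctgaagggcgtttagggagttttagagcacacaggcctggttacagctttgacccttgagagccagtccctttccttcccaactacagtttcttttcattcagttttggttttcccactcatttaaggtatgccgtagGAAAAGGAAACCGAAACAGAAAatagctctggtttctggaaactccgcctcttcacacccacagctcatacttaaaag
Rsad2: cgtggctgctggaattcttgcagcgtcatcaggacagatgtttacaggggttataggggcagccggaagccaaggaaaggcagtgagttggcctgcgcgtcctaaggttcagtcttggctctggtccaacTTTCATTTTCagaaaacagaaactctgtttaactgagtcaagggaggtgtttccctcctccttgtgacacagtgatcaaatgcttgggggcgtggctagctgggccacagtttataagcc
Of the 25 type I genes, 22 had a window, and 13 of these (59.1%) held the motif, against 1079 of 27025 genes (3.99%) with a window. A match describes letters in a window and not a site in use.

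Genes of the interferon-gamma response were divided between the drugs in neutrophils. Of 25 GTPase, antigen-processing and related genes, 13 were higher with ORIN1001 and 12 with docetaxel, and the median was 0.06, or 0.29 after TMM scaling, where 19 were higher with ORIN1001. Irf1, a transcription factor induced by interferon-gamma, was at 642 CPM with ORIN1001, 476 with docetaxel and 259.6 with vehicle (log2 ratio 0.43, 95% interval 0.39 to 0.48). Cd274, the gene of PD-L1, was at 628 CPM with ORIN1001, 463 with docetaxel and 332 with vehicle (log2 ratio 0.44, 95% interval 0.40 to 0.48). Gbp4, a guanylate-binding protein, was at 72.2 CPM with ORIN1001, 49.4 with docetaxel and 12.1 with vehicle, a ratio of 0.55, while Gbp5 was at 243 CPM with ORIN1001, 350.2 with docetaxel and 93.0 with vehicle, a ratio of -0.52. All 4 were above vehicle with either drug, and the drugs' order differed between genes of one family. Cxcl9 and Cxcl10, both CXCR3 ligands that draw T cells, also parted. Cxcl9 was at 22.3 CPM with ORIN1001, 15.3 with docetaxel and 7.84 with vehicle and Cxcl10 at 841 CPM with ORIN1001, 1622 with docetaxel and 628 with vehicle, ratios of 0.54 and -0.95. The promoter of Irf1 is shown because it holds the gamma-activated site TTCNNNGAA, a palindrome, in capitals (chr11:53769764-53770013, plus strand; 1 of the gene's 2 windows).
Irf1: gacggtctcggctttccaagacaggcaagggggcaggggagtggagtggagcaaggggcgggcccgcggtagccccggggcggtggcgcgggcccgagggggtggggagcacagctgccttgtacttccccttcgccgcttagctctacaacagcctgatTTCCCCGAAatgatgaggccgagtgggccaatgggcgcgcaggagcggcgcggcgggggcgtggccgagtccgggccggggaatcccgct
That motif was in 6 of 18 interferon-gamma genes with a window (33.3%), 4 of 22 type I genes and 9.55% of all genes, while the type I element was in 9 of the 18 (50%), so the lists' letters overlap.

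Chaperones and other targets of XBP1s were lower with ORIN1001 in neutrophils. Of 22, 21 were higher with docetaxel, beside 7376 of 10268 of all neutrophil genes. None of the 22 was past 2-fold, and the median was -0.54. After TMM scaling, 18 were higher with docetaxel and the median was -0.30. Xbp1 was at 254 CPM with ORIN1001, 414 with docetaxel and 286 with vehicle (log2 ratio -0.70, 95% interval -0.75 to -0.65), so its total mRNA was lowest with ORIN1001 and highest with docetaxel. Creld2, a secreted chaperone-like protein, was at 21.7 CPM with ORIN1001, 34.6 with docetaxel and 31.4 with vehicle (log2 ratio -0.68, 95% interval -0.86 to -0.49). Pdia6, a protein disulfide isomerase, was at 41.2 CPM with ORIN1001, 68.4 with docetaxel and 70.0 with vehicle (log2 ratio -0.73, 95% interval -0.86 to -0.60). Hspa5, the chaperone BiP, was at 574 CPM with ORIN1001, 647 with docetaxel and 666 with vehicle (log2 ratio -0.17, 95% interval -0.21 to -0.13), a difference smaller than the TMM shift, which turns its sign. Ern1, which encodes IRE1, was at 18.7 CPM with ORIN1001, 20.0 with docetaxel and 20.0 with vehicle (log2 ratio -0.10, 95% interval -0.32 to 0.12) and did not differ beyond counting error. Genes of the PERK and ATF4 arm, the other stress branch, pointed away from this, with 8 of 11 higher with ORIN1001 and a median of 0.25 (9 and 0.49 after TMM scaling).

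The promoters of Hspa5 and Creld2 are shown for the endoplasmic reticulum stress element, CCAAT, any 9 bases and CCACG, read on both strands and printed in capitals, which lies on the reverse strand in Creld2. The windows are Hspa5 (chr2:34771840-34772089, plus strand) and Creld2 (chr15:88819396-88819645, plus strand).
Hspa5: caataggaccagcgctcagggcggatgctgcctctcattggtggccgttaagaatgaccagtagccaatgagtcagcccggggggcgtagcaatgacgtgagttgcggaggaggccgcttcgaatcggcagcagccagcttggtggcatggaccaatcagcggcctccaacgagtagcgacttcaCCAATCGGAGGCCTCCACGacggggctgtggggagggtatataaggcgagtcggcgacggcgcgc
Creld2: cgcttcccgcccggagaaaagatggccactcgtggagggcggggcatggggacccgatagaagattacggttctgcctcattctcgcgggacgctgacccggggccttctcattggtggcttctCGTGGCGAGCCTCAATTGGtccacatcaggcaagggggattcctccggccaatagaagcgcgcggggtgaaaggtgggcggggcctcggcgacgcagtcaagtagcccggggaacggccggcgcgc
The element was in 7 of 18 genes of the list with a window (38.9%) and in 37 of all 27025 genes (0.137%).

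Hypoxia and glycolysis genes were higher with ORIN1001 for all 21 measured in neutrophils, 4 past 2-fold against 1.53% of all genes. The list's median was 0.65 (0.89 after TMM scaling). Ero1l, an oxidase of the reticulum induced by low oxygen, was at 1038 CPM with ORIN1001, 486 with docetaxel and 1049.6 with vehicle (log2 ratio 1.09, 95% interval 1.05 to 1.13). Bnip3, a mitophagy receptor, was at 946 CPM with ORIN1001, 466 with docetaxel and 924 with vehicle (log2 ratio 1.02, 95% interval 0.98 to 1.06). Gapdh, the glycolytic enzyme, was at 1632 CPM with ORIN1001, 797 with docetaxel and 1298 with vehicle, a ratio of 1.03, and Adm, the adrenomedullin gene, at 44.1 CPM with ORIN1001, 16.9 with docetaxel and 46.9 with vehicle, a ratio of 1.38. For Ero1l, Bnip3 and Adm vehicle was close to ORIN1001, and docetaxel was the library that stood apart. The thinned neutrophil held a median of 18 UMIs of the list with ORIN1001, 10 with docetaxel and 19 with vehicle. The promoter of Bnip3 is shown with the core of the hypoxia response element, ACGTG on either strand, in capitals (chr7:138909507-138909756, minus strand; 2 overlapping matches).
Bnip3: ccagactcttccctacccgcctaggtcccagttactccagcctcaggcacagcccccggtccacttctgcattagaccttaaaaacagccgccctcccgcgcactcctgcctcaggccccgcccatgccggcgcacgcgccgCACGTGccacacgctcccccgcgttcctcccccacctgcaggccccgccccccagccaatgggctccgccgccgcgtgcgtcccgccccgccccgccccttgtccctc
The core was in 15 of 20 hypoxia genes with a window (75%) and in 21.8% of all genes.

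Tubulin genes encode the protein that docetaxel binds. All 9 measured in neutrophils were higher with docetaxel, beside 7376 of 10268 of all neutrophil genes, and the median was -0.53 (-0.29 after TMM scaling). Tuba1b was at 130.2 CPM with ORIN1001, 238 with docetaxel and 159 with vehicle (log2 ratio -0.87, 95% interval -0.94 to -0.80). Tubb5 was at 93.3 CPM with ORIN1001, 156 with docetaxel and 109 with vehicle and Tubb4b at 109 CPM with ORIN1001, 175 with docetaxel and 111 with vehicle, ratios of -0.75 and -0.69. Docetaxel was above vehicle for the 3, and ORIN1001 at or below it. In macrophages 10 of 10 tubulins were also higher with docetaxel (median -0.30), while in CD8 T cells 7 of 9 were higher with ORIN1001 (median 0.19). Summed macrophage markers within the neutrophil gate were 630 CPM with ORIN1001 and 802 with docetaxel (2 of 10 higher with ORIN1001), T cell markers 25.6 and 38.2 (1 of 10) and epithelial markers 33.0 and 64.5 (0 of 8), and their part in the neutrophil results was not tested.

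Macrophages with ORIN1001 had more of the interferon-gamma and antigen-presentation genes, and macrophages with docetaxel more of the type I interferon and lipid-associated genes. Of 25 interferon-gamma genes, 19 were higher with ORIN1001, 2 past 2-fold against 1.34% of all genes, and the median was 0.23 (0.11 when each cell weighed alike). Cxcl9, a T cell attractant, was at 209 CPM with ORIN1001, 77.4 with docetaxel and 31.9 with vehicle (log2 ratio 1.43, 95% interval 1.36 to 1.5). In macrophages thinned to 1000 UMIs, 10.8% had a Cxcl9 UMI with ORIN1001, 4.48% with docetaxel and 1.71% with vehicle, against 0.52% and 0.27% of T cells with ORIN1001 and docetaxel. Unthinned, 32.6% and 16.9% of macrophages had one. Cxcl10, the other main CXCR3 ligand, went the other way, at 159 CPM with ORIN1001, 329.9 with docetaxel and 149 with vehicle (log2 ratio -1.05, 95% interval -1.11 to -0.99). Gbp4 was at 53.9 CPM with ORIN1001, 26.0 with docetaxel and 12.6 with vehicle, a ratio of 1.05, Gbp2 at 105 CPM with ORIN1001, 66.8 with docetaxel and 28.9 with vehicle, a ratio of 0.66, and Irf1 had a ratio of 0.63. Cd274, the gene of PD-L1, was at 55.5 CPM with ORIN1001, 35 with docetaxel and 24.0 with vehicle, a ratio of 0.67.

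Each of the 7 measured genes of MHC class II was on the ORIN1001 side, and the median was 0.55. Ciita, their master activator, was at 87.5 CPM with ORIN1001, 40.3 with docetaxel and 47.0 with vehicle (log2 ratio 1.12, 95% interval 1.02 to 1.22). Ciita was the list's 1 gene past 2-fold, against 1.34% of all genes. Cd74, the invariant chain, was at 22372 CPM with ORIN1001, 15876 with docetaxel and 18904 with vehicle (log2 ratio 0.49, 95% interval 0.49 to 0.50). H2-Aa, an alpha chain, was at 8207 CPM with ORIN1001, 5412 with docetaxel and 6487 with vehicle, a ratio of 0.60, and H2-Eb1, a beta chain, had a ratio of 0.61. For Cd74 and H2-Aa vehicle lay between the drugs. The thinned macrophage held a median of 41 UMIs of the list with ORIN1001, 26 with docetaxel and 36 with vehicle.

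Docetaxel macrophages had the higher level of all 25 type I interferon genes, 7 past 2-fold against 1.21% of all genes, and the median was -0.87. Usp18, a feedback inhibitor of the interferon receptor, was at 34.6 CPM with ORIN1001, 95 with docetaxel and 37.7 with vehicle (log2 ratio -1.46, 95% interval -1.58 to -1.33). Ifit3 was at 40.6 CPM with ORIN1001, 103 with docetaxel and 38.4 with vehicle, a ratio of -1.34, with a near-identical copy in Ifit3b, and Slfn5, of the schlafen family, at 37.5 CPM with ORIN1001, 82.2 with docetaxel and 38.2 with vehicle, a ratio of -1.13. ORIN1001 and vehicle lay together for these 3 genes and docetaxel above them. One gene of the interferon-induced transmembrane family, which the list did not hold, had the largest ratio on the ORIN1001 side: Ifitm1 was at 465 CPM with ORIN1001, 129 with docetaxel and 105 with vehicle (log2 ratio 1.85, 95% interval 1.80 to 1.90). The thinned macrophage had at least 5 type I UMIs in 12% of cells with ORIN1001, 25.3% with docetaxel and 10.6% with vehicle.

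Genes of lipid-associated macrophages, a state known from fat and tumours, were mostly higher with docetaxel. Of 14, 11 were, 3 past 2-fold against 1.21% of all genes, and the median was -0.26. Spp1 was at 1817 CPM with ORIN1001, 4174 with docetaxel and 3964 with vehicle (log2 ratio -1.20, 95% interval -1.22 to -1.18), with vehicle at the docetaxel level. Lpl, the lipoprotein lipase, was at 23.3 CPM with ORIN1001, 57.8 with docetaxel and 27.2 with vehicle, a ratio of -1.31. Cd9, a tetraspanin, was at 50.3 CPM with ORIN1001, 124 with docetaxel and 77.3 with vehicle, a ratio of -1.31, and Trem2, the lipid receptor of this state, had a smaller ratio of -0.49. Cd36, the fatty acid receptor, ran against the list, at 16.0 CPM with ORIN1001, 6.60 with docetaxel and 2.20 with vehicle (log2 ratio 1.28, 95% interval 1.03 to 1.52), from low levels. Gdf3, a TGF-beta family ligand, was at 46.4 CPM with ORIN1001, 109 with docetaxel and 51.9 with vehicle, and the monocyte attractant Ccl2 at 148 CPM with ORIN1001, 338 with docetaxel and 191 with vehicle, ratios of -1.24 and -1.19. Ccl12, a further CCR2 ligand, was at 383 CPM with ORIN1001, 823 with docetaxel and 476 with vehicle, a ratio of -1.10.

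Genes of resident and alternatively activated macrophages leaned to ORIN1001, 11 of 16, and the median was 0.36. F13a1, a transglutaminase that the monocyte gate also reads, was at 65.1 CPM with ORIN1001, 32.7 with docetaxel and 57.8 with vehicle, a ratio of 0.99. Pf4, a CXC chemokine, was at 115 CPM with ORIN1001, 63.3 with docetaxel and 86.5 with vehicle, and Mrc1, the mannose receptor, at 45.9 CPM with ORIN1001, 29.7 with docetaxel and 33.9 with vehicle, ratios of 0.87 and 0.63. Ccl8 had a ratio of 0.91, with 1 cell holding 29.8% of its ORIN1001 UMIs. Outside the lists, Ocstamp, a gene of macrophage fusion, was at 80.6 CPM with ORIN1001, 23.6 with docetaxel and 35.1 with vehicle, and Ddit4, an mTOR inhibitor, at 86.9 CPM with ORIN1001, 41.9 with docetaxel and 47.2 with vehicle, ratios of 1.77 and 1.05. The heat shock genes Hspa1b and Hspa1a, near-identical copies, had ratios of 1.57 and 1.43, with 1 cell holding 8.53% of the Hspa1a UMIs with ORIN1001.

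**Figure D4:**
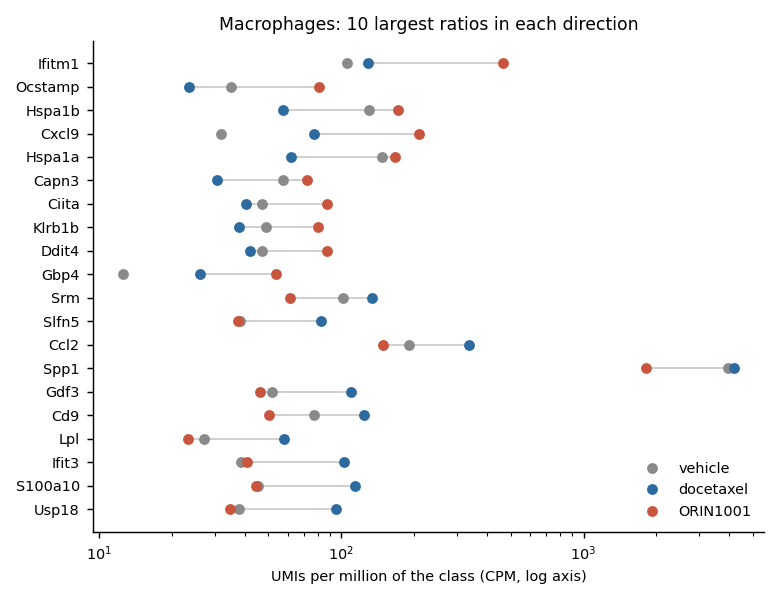
CPM in macrophages (x axis, log scale) in the ORIN1001, docetaxel and vehicle libraries of the 10 genes with the largest ratio in each direction. Cxcl9 and Gbp4 lie above vehicle in both drug libraries and highest with ORIN1001, while Usp18, Ifit3 and Slfn5 lie highest with docetaxel, with ORIN1001 beside vehicle.

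All 17 cholesterol synthesis genes were higher with ORIN1001 in macrophages, 3 past 2-fold against 1.34% of all genes, and the median was 0.73. Sqle, the squalene epoxidase, was at 21.1 CPM with ORIN1001, 10.5 with docetaxel and 21.1 with vehicle (log2 ratio 1.0, 95% interval 0.79 to 1.20). Fdft1, the squalene synthase, was at 28.6 CPM with ORIN1001, 16.3 with docetaxel and 23.0 with vehicle (log2 ratio 0.81, 95% interval 0.64 to 0.98). Docetaxel lay below vehicle for both genes, while ORIN1001 was level with vehicle for Sqle and above it for Fdft1. Macrophages were the class with every XBP1s target lower with ORIN1001, 22 of 22, none past 2-fold, and the median was -0.48. Creld2 was at 62.2 CPM with ORIN1001, 103 with docetaxel and 73.3 with vehicle (log2 ratio -0.73, 95% interval -0.82 to -0.63). Sec61b, a subunit of the translocon, was at 302 CPM with ORIN1001, 474 with docetaxel and 405 with vehicle, and Hyou1, a chaperone, at 73.0 CPM with ORIN1001, 112 with docetaxel and 86.0 with vehicle, ratios of -0.65 and -0.62. Herpud1, of the degradation machinery, was at 119 CPM with ORIN1001, 183 with docetaxel and 218 with vehicle, the 1 of these 4 that was highest with vehicle. Hspa5 had a ratio of -0.38 and Xbp1 of -0.25. Known mRNA substrates that IRE1 cleaves were higher with ORIN1001 in 4 of 4 measured, and the median was 0.27, a list of few genes. The count differed by class, at 3 of 4 in monocytes, 2 of 4 in neutrophils (4 after TMM scaling), 1 of 4 in CD8 T cells, 1 of 2 in conventional CD4 T cells, 0 of 3 in NK cells and 0 of 2 in regulatory T cells.

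Hypoxia genes were higher with ORIN1001 in 19 of 22, with a median of 0.24 beside 0.65 in neutrophils, a difference between classes that was not tested. Ndrg1 was at 155 CPM with ORIN1001, 77.5 with docetaxel and 137 with vehicle, a ratio of 1.0, and Vegfa, the vascular growth factor, at 151 CPM with ORIN1001, 79.6 with docetaxel and 148 with vehicle, a ratio of 0.92. Proliferation genes were higher with docetaxel in 19 of 20, and the median of -0.29 was -0.07 when each cell weighed alike. Summed neutrophil markers within the macrophage gate were 525 CPM with ORIN1001 and 211 with docetaxel (9 of 10 higher with ORIN1001), and T cell markers 11.1 and 11.6. The neutrophil markers summed to 86772 and 41794 CPM within neutrophils, and their part in the macrophage results was not tested.

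Monocytes showed the type I interferon difference with a wider margin, on 201 cells with ORIN1001 and 308 with docetaxel. All 25 genes were higher with docetaxel, 15 past 2-fold against 2.49% of all genes. Isg15 was at 728 CPM with ORIN1001, 1977 with docetaxel and 548 with vehicle (log2 ratio -1.44, 95% interval -1.51 to -1.37), and its ratio ranged from -1.54 to -0.74 over the alternative settings. Rsad2 was at 184 CPM with ORIN1001, 679 with docetaxel and 205 with vehicle, a ratio of -1.89 that ranged from -2.25 to -0.99, and Usp18 had a ratio of -1.74, ranging from -1.81 to -1.07. Cxcl10 was at 438 CPM with ORIN1001, 1547 with docetaxel and 429.8 with vehicle, with 1 cell holding 23.1% of the ORIN1001 UMIs, while Cxcl9 did not differ beyond counting error (log2 ratio -0.14, 95% interval -0.30 to 0.02). Ass1, the arginine-forming enzyme argininosuccinate synthase, was at 162 CPM with ORIN1001, 603 with docetaxel and 180 with vehicle (log2 ratio -1.90, 95% interval -2.04 to -1.76), and Gpr84, a receptor for medium-chain fatty acids, at 27.2 CPM with ORIN1001, 96.2 with docetaxel and 34.3 with vehicle, a ratio of -1.83. Phf11a had a ratio of -1.94. ORIN1001 was near vehicle for Ass1, Rsad2 and Gpr84, with docetaxel apart.

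All 16 cholesterol genes were higher with ORIN1001 in monocytes, 3 past 2-fold against 1.37% of all genes, with Fdps, the farnesyl diphosphate synthase, at 149 CPM with ORIN1001, 83.1 with docetaxel and 100.4 with vehicle (log2 ratio 0.84, 95% interval 0.65 to 1.04). The largest ratios on the ORIN1001 side were not of this kind: Camp, Ngp, Mmp12 and Pf4 had 99.4%, 94.0%, 86.1% and 48.4% of their ORIN1001 UMIs in 1 cell each, and Mmp12 turned its direction under an alternative gate. Wfdc21 had 25.9% of its ORIN1001 UMIs in 1 cell. Summed neutrophil markers within the monocyte gate were 4746 CPM with ORIN1001 and 1785 with docetaxel (9 of 10 higher with ORIN1001), and macrophage markers 7468 and 5082 (10 of 10), and their part in the monocyte results was not tested. Monocyte MHC class II ratios changed sign between gates and are not given.

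In CD8 T cells the type I interferon list had a median of -1.45, with 20 of 25 past 2-fold higher with docetaxel against 2.15% of all genes. Isg15 was at 241 CPM with ORIN1001, 781 with docetaxel and 589.7 with vehicle (log2 ratio -1.70, 95% interval -1.80 to -1.59). Ifi44, an interferon-induced gene, was at 9.44 CPM with ORIN1001, 56.8 with docetaxel and 38.5 with vehicle (log2 ratio -2.59, 95% interval -3.12 to -2.09). Cmpk2, a nucleotide kinase beside Rsad2 in the genome, was at 26.1 CPM with ORIN1001, 118 with docetaxel and 87.2 with vehicle, a ratio of -2.17, and Usp18 at 66.6 CPM with ORIN1001, 213 with docetaxel and 160 with vehicle, a ratio of -1.68. ORIN1001 lay below vehicle and docetaxel above it for these 4 genes. The thinned CD8 T cell held at least 5 UMIs of the list in 14.2% of cells with ORIN1001, 47.5% with docetaxel and 27.9% with vehicle. Unlike neutrophils and macrophages, the interferon-gamma list was also on the docetaxel side, 25 of 25 genes, and the median was -0.41; this difference between classes was not tested. Gbp2 had a ratio of -1.02, and Irf1, near even, of 0.00.

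Effector genes of CD8 T cells were mixed, 7 of 12 higher with ORIN1001, and had a median of 0.06. Prf1, the pore-forming perforin, was at 221 CPM with ORIN1001, 115 with docetaxel and 69.3 with vehicle (log2 ratio 0.94, 95% interval 0.78 to 1.10). Gzmb, granzyme B, was at 1171 CPM with ORIN1001, 1103 with docetaxel and 1020.1 with vehicle, a ratio of 0.09, and Ifng, the interferon-gamma gene, did not differ beyond counting error (log2 ratio 0.04, 95% interval -0.08 to 0.16). Xcl1, which draws cDC1, was at 349 CPM with ORIN1001, 949 with docetaxel and 213 with vehicle, with 1 cell holding 32.8% of the ORIN1001 UMIs and 13.2% of the docetaxel UMIs. Checkpoint genes were divided 6 to 6, and the median was 0.05. Havcr2, the gene of TIM-3, was the largest ratio on the ORIN1001 side, at 133 CPM with ORIN1001, 44.7 with docetaxel and 27.8 with vehicle (log2 ratio 1.57, 95% interval 1.33 to 1.82). Entpd1, the gene of CD39, had a ratio of 0.60, Lag3 of 0.18, Pdcd1, the gene of PD-1, of -0.20, and Ctla4 of -0.69. Pdcd1 and Lag3 were above vehicle with either drug, at 320.3 CPM with ORIN1001, 369 with docetaxel and 106 with vehicle and at 284 CPM with ORIN1001, 251 with docetaxel and 89.9 with vehicle. Cx3cr1, a receptor of effector cells, was at 51.9 CPM with ORIN1001, 22.1 with docetaxel and 14.9 with vehicle, a ratio of 1.23. Naive and memory genes had a median of 0.00, and Tcf7, their transcription factor, did not differ beyond counting error (95% interval -0.36 to 0.07).

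All 17 cholesterol genes were higher with ORIN1001 in CD8 T cells, 7 past 2-fold against 1.18% of all genes, and the median was 0.84. Idi1, the isopentenyl diphosphate isomerase, was at 81.5 CPM with ORIN1001, 28.6 with docetaxel and 42.3 with vehicle (log2 ratio 1.51, 95% interval 1.21 to 1.82). Hmgcs1, the entry enzyme, had a ratio of 1.05. Scd2, a fatty acid desaturase outside the list, was at 68.8 CPM with ORIN1001, 30.3 with docetaxel and 46.5 with vehicle, a ratio of 1.19. Vehicle lay between the drugs for Idi1 and Scd2. Of 20 hypoxia genes, 19 were higher with ORIN1001, 5 past 2-fold against 1.18% of all genes, and the median was 0.53. Hilpda, a lipid droplet protein induced by low oxygen, was at 72.8 CPM with ORIN1001, 29.8 with docetaxel and 50.3 with vehicle, a ratio of 1.29. XBP1s targets were near even, 14 of 22 higher with docetaxel and a median of -0.07. Immediate early and heat shock genes were higher with docetaxel in 19 of 22, and the median was -0.38. Summed neutrophil markers within the CD8 T cells were 530 CPM with ORIN1001 and 409 with docetaxel (6 of 10 higher with ORIN1001), and macrophage markers 242 and 462 (2 of 10), and their part in these results was not tested.

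**Figure D5:**
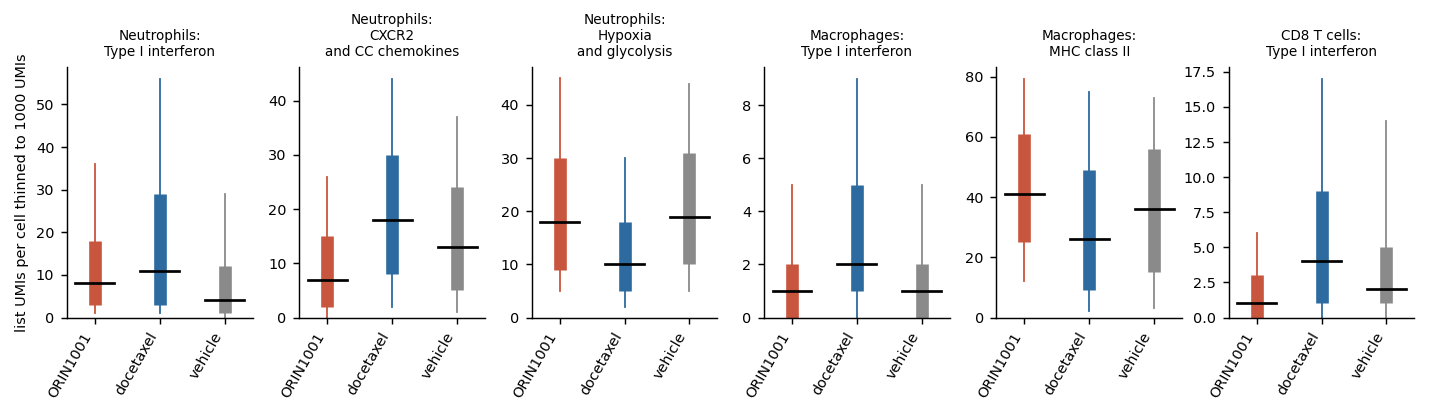
UMIs of a gene list per cell (y axis) after each cell was thinned to 1000 UMIs, for 6 pairs of class and list in the ORIN1001, docetaxel and vehicle libraries; black lines are medians over cells, boxes span the 25th to 75th percentiles and thin lines the 10th to 90th. Cells within a library are not replicates. The median neutrophil held 7 chemokine UMIs with ORIN1001 against 18 with docetaxel, and the median CD8 T cell 1 type I interferon UMI against 4.

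Regulatory T cells, 160 with ORIN1001 and 207 with docetaxel, differed in the same 2 programmes. The docetaxel side held all 22 measured type I genes, 12 past 2-fold against 2.13% of all genes. Irf7, a transcription factor of the interferon loop, was at 162 CPM with ORIN1001, 519 with docetaxel and 183 with vehicle, a ratio of -1.68, and Bst2, the tethering protein tetherin, at 217 CPM with ORIN1001, 677 with docetaxel and 384 with vehicle, a ratio of -1.64. All 14 cholesterol genes were higher with ORIN1001, 8 past 2-fold against 1.55% of all genes, and the median was 1.29. Sqle was at 40 CPM with ORIN1001, 9.44 with docetaxel and 28.9 with vehicle, a ratio of 2.08, and Fdps at 123 CPM with ORIN1001, 41.7 with docetaxel and 77.9 with vehicle, a ratio of 1.56. Activation genes of regulatory T cells leaned to docetaxel, 10 of 12, and the median was -0.19. Ctla4, the checkpoint receptor, was at 1238 CPM with ORIN1001, 1887 with docetaxel and 1171 with vehicle (log2 ratio -0.61, 95% interval -0.70 to -0.51), Ccr8, a receptor of tumour-resident cells, had a ratio of -0.80, and Tnfrsf4, the gene of OX40, of -0.53. Ebi3, a subunit of interleukin 35, was at 26.1 CPM with ORIN1001, 66.9 with docetaxel and 39.0 with vehicle, a ratio of -1.36, and Il10, the suppressive cytokine, ran the other way, at 109.6 CPM with ORIN1001, 75.6 with docetaxel and 46.2 with vehicle, a ratio of 0.54. Lag3, a checkpoint receptor, was at 317 CPM with ORIN1001, 68.5 with docetaxel and 121 with vehicle (log2 ratio 2.21, 95% interval 1.87 to 2.57), with 1 cell holding 9.86% of those UMIs.

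Some of the largest ratios in regulatory T cells rested on few cells or on markers of other classes. Lgals7, the gene of galectin 7, known from squamous epithelium, was at 72.2 CPM with ORIN1001, 8.66 with docetaxel and 11.5 with vehicle (log2 ratio 3.06, 95% interval 2.15 to 4.12), with a UMI in 12.5% of cells with ORIN1001 and 4.35% with docetaxel and 1 cell holding 19.3% of the ORIN1001 UMIs. Fn1 and Itgam, genes of myeloid cells, had ratios of 1.95 and 1.59, with 49.0% and 28.3% of the ORIN1001 UMIs in 1 cell each. Napsa and Bcl2a1a, on the docetaxel side, changed direction between alternatives. Summed neutrophil markers were 917 CPM with ORIN1001 and 349 with docetaxel (5 of 10 higher with ORIN1001), macrophage markers 784 and 291 (9 of 10) and epithelial markers 48.7 and 135 (0 of 8, with Krt5 and Cldn4 at 0), and their part in these results was not tested. The summed neutrophil and macrophage markers were higher with ORIN1001 and the summed epithelial markers with docetaxel.

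NK cells, 104 with ORIN1001 and 113 with docetaxel, had 18 of 20 type I genes on the docetaxel side, 13 past 2-fold against 2.06% of all genes, and all 11 measured cholesterol genes higher with ORIN1001, 7 past 2-fold against 1.87%. Ifi44 was at 31.8 CPM with ORIN1001, 145 with docetaxel and 59.0 with vehicle (log2 ratio -2.19, 95% interval -2.74 to -1.66), and Fdps at 82.1 CPM with ORIN1001, 27.5 with docetaxel and 44.9 with vehicle (log2 ratio 1.58, 95% interval 0.94 to 2.26). Chemokines that NK cells release were lower with ORIN1001. Xcl1 was at 1473 CPM with ORIN1001, 3355 with docetaxel and 1456 with vehicle (log2 ratio -1.19, 95% interval -1.27 to -1.10). Ccl4 was at 994 CPM with ORIN1001, 2027 with docetaxel and 1191 with vehicle and Ccl5 at 2899.5 CPM with ORIN1001, 5095 with docetaxel and 2875 with vehicle, ratios of -1.03 and -0.81. Gzmb was at 886 CPM with ORIN1001, 1384 with docetaxel and 882 with vehicle, a ratio of -0.64, while Prf1 (0.08) and Gzma (-0.07) were near even and Ifng did not differ beyond counting error (95% interval -0.16 to 0.56). Gzmk and Gzmc parted. Gzmk was at 87.9 CPM with ORIN1001, 40.2 with docetaxel and 78.0 with vehicle, a ratio of 1.13. Gzmc was at 141 CPM with ORIN1001, 429 with docetaxel and 105 with vehicle, a ratio of -1.61. In the drug libraries 1 cell held 59.5% and 65.3% of the Gzmc UMIs. Of the UMIs in the higher library, 1 cell held 23.5% for Fdps, 23.3% for Ccl4 and 17.5% for Xcl1. For Xcl1 and Gzmb, ORIN1001 was at the vehicle level and docetaxel above it.

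Proliferation genes were higher with ORIN1001 in NK cells, all 15 measured, 6 past 2-fold against 1.87% of all genes, and the median was 0.77. Among the 6, 1 cell held 73.7% of the 38 ORIN1001 UMIs of Cenpf and 28.2% of those of Ccnb2. For Cdk1, Tyms and Mcm5 that share was 17.9%, 15.3% and 10.8%. With docetaxel, 1 cell held 66.7% of the Cenpf UMIs and 64.0% of the Ccnb2 UMIs. Mki67 was at 188 CPM with ORIN1001, 77.1 with docetaxel and 258 with vehicle, so docetaxel was the library that stood apart, with 1 cell holding 17.8% and 26.0% of the UMIs in the drug libraries. Its ratio of 1.29 ranged from 1.01 to 2.12 over the alternatives. Immediate early genes such as Fos, at 322 CPM with ORIN1001, 739 with docetaxel and 662 with vehicle, were mostly higher with docetaxel (18 of 23 with the heat shock genes). The 5 higher with ORIN1001 included Egr3, an immediate early transcription factor, at 33.5 CPM with ORIN1001, 15.9 with docetaxel and 4.30 with vehicle (log2 ratio 1.08, 95% interval 0.19 to 2.04). Of its 40 ORIN1001 UMIs 42.5% were in 1 cell, and of its 15 docetaxel UMIs 40%. The 5 also included the heat shock genes Hspa1a and Hspa1b, near-identical copies with 56.0% and 60% of their ORIN1001 UMIs in 1 cell. Ly6a, a surface antigen induced by interferon, had the ratio -3.95, with 32.7% of its docetaxel UMIs in 1 cell, and Gbp6 was at 29.3 CPM with ORIN1001, 113 with docetaxel and 41.2 with vehicle, a ratio of -1.95. Summed neutrophil markers within NK cells were 252 CPM with ORIN1001 and 78.2 with docetaxel (7 of 10 higher with ORIN1001), and macrophage markers 48.6 and 141 (0 of 10, with Mrc1 at 0), and their part in these results was not tested.

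Conventional CD4 T cells, 128 with ORIN1001 and 119 with docetaxel, had all 21 measured type I genes on the docetaxel side, 18 past 2-fold against 2.21% of all genes, and all 9 measured cholesterol genes higher with ORIN1001, 4 past 2-fold against 2.01%. Ifit1 was at 79.2 CPM with ORIN1001, 263 with docetaxel and 122 with vehicle (log2 ratio -1.73, 95% interval -2.17 to -1.31). Proliferation genes were the reverse of NK cells, higher with docetaxel in all 11 measured, 6 past 2-fold against 2.21% of all genes. Their median was -1.04, and the difference between the classes was not tested. Top2a, the topoisomerase of dividing cells, was at 51.1 CPM with ORIN1001, 187 with docetaxel and 136 with vehicle (log2 ratio -1.87, 95% interval -2.42 to -1.35), and Mki67 at 61.3 CPM with ORIN1001, 148 with docetaxel and 179 with vehicle, a ratio of -1.28, with 1 cell holding 27.6% and 25.7% of their docetaxel UMIs. Hypoxia genes were higher with ORIN1001 in 15 of 17. Several of the largest ratios leaned on 1 cell: Ccl1 had 75.4% of its ORIN1001 UMIs in 1 cell, Lgals7 51.3%, though 10.2% of cells had a Lgals7 UMI, and Penk 60.6% of its docetaxel UMIs. Il17a, the interleukin-17 gene, was at 152 CPM with ORIN1001, 61.7 with docetaxel and 429.5 with vehicle, and its ratio of 1.30 ranged from 0.17 to 2.32. Summed neutrophil markers were 590 CPM with ORIN1001 and 101 with docetaxel (6 of 10 higher with ORIN1001, with Retnlg at 0), and macrophage markers 877 and 538 (6 of 10), and their part in these results was not tested.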

How the data were processed

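Per the file headers, the deposited counts were whole UMIs for each barcode and gene, written by Cell Ranger 5.0.1 for the barcodes it called as cells, with no normalization by the authors. Per the submitters' processing notes, reads were aligned to mm10 and Seurat 4.0.1 was used later. The labels give the kit as 3' V2, and the annotation release behind the 32285 features (40 symbols duplicated and made unique) is not given in the sources used here.

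Barcodes with at least 200 genes and under 10% mitochondrial UMIs were gated on marker UMIs, UMIs were summed per class and library, and ratios of CPM carry exact Poisson intervals at 95%. Each group had 1 library, so no test was run. A gate's own genes were left out of the class they gate. The members, the 28 gene lists and the gates were chosen with earlier results of these data known, and gate limits with the data in hand. Named genes were the 10 (neutrophils, macrophages) or 5 largest ratios per direction with 30 UMIs and 50 CPM or more on the higher side, intervals apart and at least 5% of the highest class's CPM, plus up to 6 members per list and the gate markers; a few of these are not reported here. Scrublet's automatic threshold marked 0% of ORIN1001, 1.27% of docetaxel and 2.00% of vehicle barcodes. Only barcodes still meeting several gates, after some gates gave way to others, were therefore set apart. An alternative removed the top scores (7.28% with ORIN1001, 7.58% with docetaxel). TMM scaling was written after edgeR's defaults. The CPM ratios and their Poisson intervals were tested on simulated Poisson counts, drawn from the sums of neutrophils, macrophages and CD8 T cells. The gates, shares, thinning and TMM scaling were not part of that test. Python 3.11.15, numpy 2.4.6, scipy 1.17.1, pandas 2.3.3, scanpy 1.11.5 and matplotlib 3.10.9 were used.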

Additional observations from a re-analysis of the deposited data

How the results depend on the processing

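Of the class shares, 72 of 78 values under the alternatives stayed within the counting interval of the value reported. The log2 ratio of the neutrophil share was 0.46 with 2 times the gate UMIs. With classes set by the highest mean marker level, the macrophage ratio was -0.75 and the monocyte ratio -1.10, and the latter was -1.08 with neutrophil and macrophage gates on all markers, an alternative chosen after seeing the data. With cells thinned to 1000 UMIs, the ratio was -1.89 for cDC1 (2 and 7 cells) and -1.57 for gamma-delta T cells within T cells (12 and 42 cells). Of the counts past 2-fold, 67 of 84 stayed within 1.5 times. With TMM scaling the neutrophil counts were 284 higher with ORIN1001 and 206 higher with docetaxel. With a minimum of 10 UMIs the counts, in the same order, were 360 and 816 in neutrophils, 344 and 301 in macrophages, 316 and 460 in monocytes, 400 and 276 in NK cells, 265 and 431 in CD8 T cells, 367 and 354 in regulatory T cells and 418 and 308 in conventional CD4 T cells, with more genes of low count tested. CD8 T cells had 173 higher with ORIN1001 under 2 times the gate UMIs; the cause was not tested. Of 305 list medians, 268 stayed close and 4 changed sign: with TMM, the neutrophil BCL2 family (0.076) and immediate early and heat shock genes (0.049), and in monocytes hypoxia genes with 2 times the gate UMIs (-0.039) and with gates on all markers (-0.090). The monocyte MHC class II ratios, which changed sign between gates and are not given, are not among these 4.

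No paired analysis was possible because each group held 1 library. With 1 library a side, differences between animals, tumours or sorts cannot be told apart from those between the drugs. Classes under 100 cells in either library were described by their shares only, and genes under 30 UMIs were not read. Free RNA in the droplets was not modelled.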

Other observations

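Targets of p53, the stress-response transcription factor, were higher with docetaxel in neutrophils for 9 of 10 measured genes, beside 7376 of 10268 over all neutrophil genes. After TMM scaling the count was 7 of 10, and the median log2 ratio went from -0.34 to -0.11. Ccng1, cyclin G1, was at 88.4 CPM with ORIN1001, 164 with docetaxel and 109.8 with vehicle, and Cdkn1a, the cell-cycle inhibitor p21, was at 830.3, 1119.8 and 1297 CPM in the same order, highest with vehicle. In macrophages 6 of 11 were higher with ORIN1001 and the median was 0.04, so no common direction was seen there.

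Complement and Fc receptor genes of macrophages leaned slightly to ORIN1001, 7 of 11 with a median of 0.16. Fcgr4, an activating receptor for IgG, was at 219 CPM with ORIN1001, 140.2 with docetaxel and 115 with vehicle, a ratio of 0.65 (95% interval 0.59 to 0.70).

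Medians of the lists not described elsewhere lay between -0.55 (proliferation) and 0.30 (checkpoint genes) over 12 lists in neutrophils (-0.32 and 0.54 after TMM scaling), between -1.06 (cytotoxic effectors) and 0.51 (naive and memory genes) over 13 lists in macrophages, and between -1.31 (proliferation) and 0.89 (resident macrophage genes) over 18 lists in monocytes. They lay between -1.21 (MHC class II) and 0.11 (lipid-associated genes) over 12 lists in NK cells, between -0.58 (inflammatory cytokines) and 0.64 (chemokines) over 15 lists in CD8 T cells, between -0.96 (MHC class II) and 0.99 (complement and Fc receptors) over 15 lists in regulatory T cells, and between -0.87 (cytotoxic effectors) and 0.24 (suppressors of cytokine signalling) over 13 lists in conventional CD4 T cells. Many of these lists hold genes that the class expresses at low levels.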
